A study of Homo sapiens with 9 samples.

Results

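The 10 genes described here, BCL2, BCL2L1, MCL1, BAK1, BAD, BID, BCL2L11, BIK, BMF and PMAIP1, encode members of the BCL2 family of apoptosis regulators. They were chosen by gene symbol and are 10 of the 60880 gene rows in the count tables, and all 10 had enough counts to be among the 18389 genes tested. RNA was measured by RNA-seq in LNCaP, an androgen-sensitive line established from a lymph node metastasis of human prostate cancer, in 9 libraries labelled 24 h. The 9 libraries form 3 groups of 3. The rescue cells overexpressed UGT2B28, a UDP-glucuronosyltransferase of androgen metabolism, in the knockdown background under 1 mg/mL G418. The knockdown cells, a single line labelled KD4, carried a knockdown of UGT2B28 under 3 µg/mL puromycin. The control cells were labelled NT, with no antibiotic named for them. Rescue cells thus carried the knockdown too, and each group was 1 line, so a construct cannot be told apart from its antibiotic or from a difference between lines. Nothing in the labels says that the 3 libraries of a group came from separate cultures. The p-values may then reflect technical spread alone.

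The BCL2 family sets whether the outer mitochondrial membrane is opened during apoptosis. Pro-survival members such as BCL2, BCL-XL (the long product of BCL2L1) and MCL1 hold the effectors and the BH3-only proteins in check, the effector BAK (BAK1) forms pores that release cytochrome c, and BH3-only proteins bind pro-survival members through a short helix, some of them also activating the effectors directly. In prostate epithelium the family is studied as a link between androgen signalling and cell survival.

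The BH3 helix is the feature that the 10 proteins share, and the stretch of coding sequence that encodes its core is shown for each to let the members be compared. Each line is 42 bases of coding sequence, read 5′ to 3′ from the GENCODE v29 transcripts (GRCh38), and capitals mark the codon of the conserved leucine and the codons of the small residue and the aspartate that follow it.
BCL2: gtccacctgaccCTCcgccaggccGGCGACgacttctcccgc
BCL2L1: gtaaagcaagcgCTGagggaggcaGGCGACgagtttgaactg
MCL1: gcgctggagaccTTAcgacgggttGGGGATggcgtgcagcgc
BAK1: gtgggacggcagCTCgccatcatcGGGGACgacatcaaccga
BAD: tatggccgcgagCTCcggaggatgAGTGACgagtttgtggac
BID: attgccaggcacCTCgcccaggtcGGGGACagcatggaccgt
BCL2L11: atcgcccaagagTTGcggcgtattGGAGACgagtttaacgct
BIK: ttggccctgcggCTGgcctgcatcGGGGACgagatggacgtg
BMF: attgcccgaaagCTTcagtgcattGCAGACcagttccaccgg
PMAIP1: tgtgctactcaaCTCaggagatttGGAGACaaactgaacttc
The pattern searched for required the leucine, a glycine, alanine or serine and the aspartate, so their presence is no finding. The small residue is encoded by a glycine codon in 8 members, a serine codon in BAD and an alanine codon in BMF. BID held 2 matches to the pattern, and the later one, which lies in its known BH3 helix, is shown. The annotated proteins are 54 residues long for PMAIP1 and 350 residues for MCL1, the shortest and the longest of the 10.

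Reads assigned to genes numbered 20300744 to 26459528 in rescue libraries, 21753045 to 26145310 in knockdown libraries and 21483664 to 26004347 in control libraries. UGT2B28 itself was counted 1124, 1554 and 1857 times in rescue libraries, 17, 8 and 1 times in knockdown libraries and 25, 4 and 10 times in control libraries. The overexpression was therefore visible, while a lower level in knockdown than in control cells was not detectable at these counts (log2 fold change −0.60, SE 0.62, edgeR adjusted p = 0.52). All 9 luminal prostate markers examined were present, with summed levels of 7850 to 8654 CPM (read counts scaled to each library's total) in rescue, 7385 to 7758 CPM in knockdown and 3961 to 4237 CPM in control libraries. KLK3 made up much of that sum, at 4407 CPM in rescue, 3750 CPM in knockdown and 1428 CPM in control cells, whereas KRT8 was lower in rescue than in control cells (log2 fold change −0.21, edgeR adjusted p = 0.0257) and EPCAM was not called for knockdown against control. Of the markers of other cells, PTPRC and CD3E (immune cells) and PDGFRA (fibroblasts) were at 0 in every library, and CD68 (immune cells) was near 3 CPM in each group. COL1A1 (fibroblasts) was at 63.2 CPM in rescue, 48.4 CPM in knockdown and 68.2 CPM in control cells, lower in knockdown than in control cells (log2 fold change −0.50, edgeR adjusted p = 0.000183). VWF (endothelium) and KRT14 (basal epithelium) averaged under 7 CPM in each group and were higher in knockdown than in control cells (log2 fold change 1.23 and 1.22, edgeR adjusted p = 0.00012 and 0.00165). KRT15, another basal marker, went the other way, at 0.0267 CPM in knockdown and 0.55 CPM in control cells (log2 fold change −4.09, edgeR adjusted p = 0.00645). The basal markers KRT5 and TP63 had too few counts to be tested. So did the other fibroblast markers COL1A2, LUM and DCN, each with at most 2 counts in any group. The same held for the other endothelial markers, CDH5 and KDR. CDH5 had 3 counts in control libraries only, and KDR had 2 counts in knockdown libraries only. The part of these markers in the results below was not tested. In bulk RNA, fewer cells of a type and less RNA per cell cannot be told apart.

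Knockdown and control cells differed in 5 of the 10 genes. BCL2L1 and BAK1 were higher in knockdown cells, and MCL1, BIK and BMF were lower. Over all genes tested, 32.1% differed between these groups (edgeR's quasi-likelihood test, Benjamini-Hochberg adjusted p under 0.05 over all genes), 16.5% being higher and 15.6% lower, which is the background for the 5 of 10 and which no test set against it. Rescue and knockdown cells differed in 1 of the 10, BAK1, which was higher in rescue cells, against a background of 10.1%, made of 5.2% higher and 4.88% lower. Rescue and control cells differed in 5 of the 10, against a background of 37.8%, made of 19% higher and 18.8% lower, with BCL2L1, BAK1 and BCL2L11 higher and BIK and BMF lower in rescue cells. The rescue and knockdown comparisons with control share the same 3 control libraries. The median log2 fold change of the 10 genes was −0.04 for knockdown against control, 0.01 for rescue against knockdown and −0.08 for rescue against control, beside 0.01, −0.0048 and −0.0025 over all genes.

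**Figure D1:**
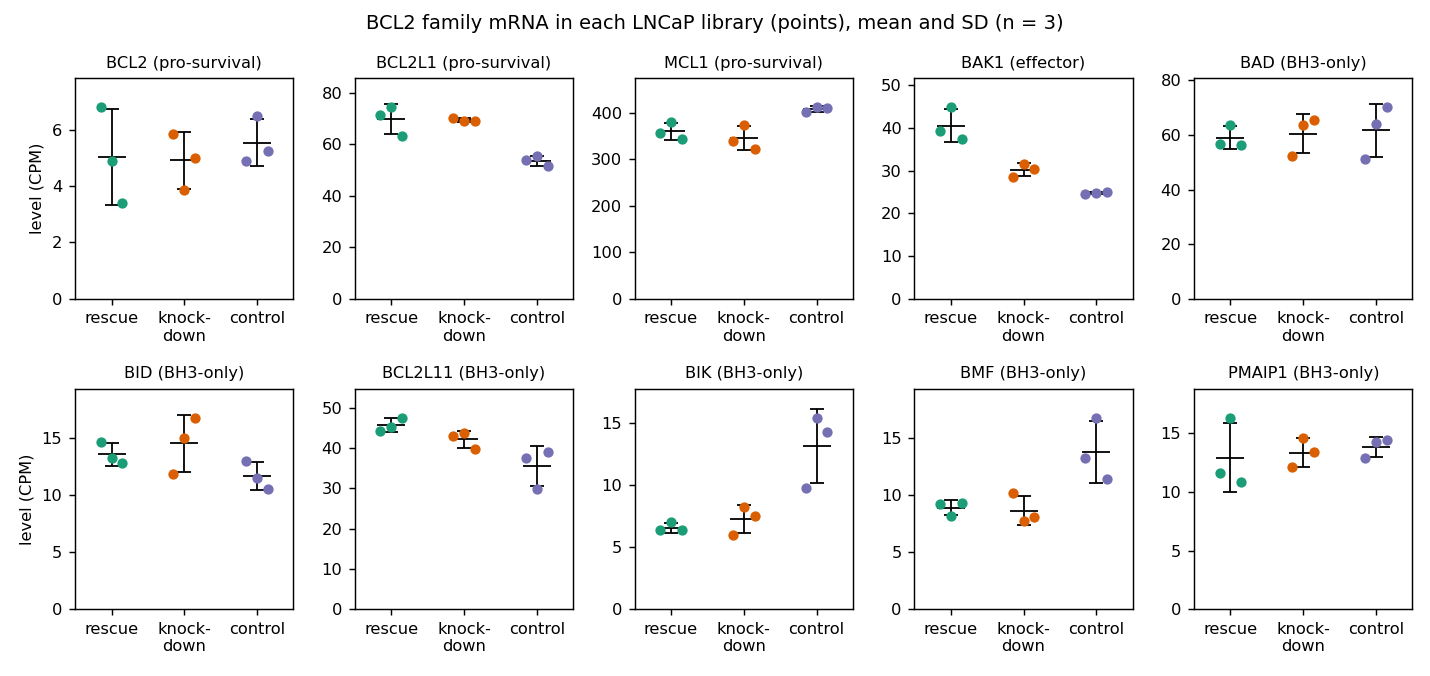
Level of each of the 10 genes on a linear axis in CPM from 0, with 1 point per library for rescue, knockdown and control cells, a horizontal line at the group mean and whiskers of 1 SD. BIK and BMF points of rescue and knockdown cells lie below all control points, BCL2L1 and BAK1 points of those cells lie above them, and BAD and PMAIP1 points overlap in all 3 groups.

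Among the pro-survival genes, BCL2L1 was higher and MCL1 lower in knockdown than in control cells, and no difference in BCL2 was found. BCL2L1 (ENSG00000171552.12_3), whose long product BCL-XL protects mitochondria, was at 71.6, 74.5 and 63.3 CPM in rescue libraries, 70.5, 69.2 and 69.2 CPM in knockdown libraries and 54.0, 55.5 and 51.6 CPM in control libraries. Every rescue and knockdown value was above every control value, and rescue and knockdown values overlapped. It was 29.6% higher in knockdown than in control cells (log2 fold change 0.37, SE 0.08, edgeR adjusted p = 0.000833). In rescue cells it was 29.9% higher than in control cells (log2 fold change 0.38, SE 0.08, edgeR adjusted p = 0.000596). Between rescue and knockdown cells the log2 difference had a 95% interval of −0.20 to 0.20, so a difference of that size in either direction remains possible.

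MCL1 (ENSG00000143384.12_3) encodes a short-lived pro-survival protein. Its level was 357, 381 and 344 CPM in rescue libraries, 341, 374 and 323 CPM in knockdown libraries and 401, 413 and 411 CPM in control libraries. All rescue and knockdown values were below all control values. MCL1 fell by 15.3% in knockdown against control cells (log2 fold change −0.24, SE 0.07, edgeR adjusted p = 0.0121), a call that was lost when knockdown library 3 was left out (adjusted p = 0.0751, edgeR). The rescue value was near the threshold, with a log2 fold change against control of −0.18 (SE 0.07, edgeR adjusted p = 0.0527), and DESeq2 and limma voom did call it (adjusted p = 0.0453 and 0.0359). With 1 library left out, its edgeR adjusted p ran from 0.045 without control library 1 to 0.192 without rescue library 3.

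BCL2 (ENSG00000171791.12_4), the founding pro-survival member, had 352 counts in all in rescue libraries, 355 in knockdown libraries and 387 in control libraries. Its mean was 5.04 ± 1.71 CPM in rescue cells, 4.92 ± 1.00 CPM in knockdown cells and 5.56 ± 0.834 CPM in control cells (SD, n = 3 each), and the 3 groups overlapped. The 95% interval of the log2 fold change ran from −0.75 to 0.40 for knockdown against control and from −0.72 to 0.43 for rescue against control, so changes within these bounds could not be told from 0.

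BAK1 (ENSG00000030110.12_2), the pore-forming effector, was the gene among the 10 that differed in every comparison. It was at 39.4, 44.9 and 37.3 CPM in rescue libraries, 28.6, 31.7 and 30.3 CPM in knockdown libraries and 24.5, 24.7 and 25.0 CPM in control libraries. The groups did not overlap and were ordered rescue, knockdown, control. BAK1 was 34.2% higher in rescue than in knockdown cells (log2 fold change 0.42 with an SE of 0.10, edgeR adjusted p = 0.00519). It was 63.7% higher in rescue than in control cells (log2 fold change 0.71 with an SE of 0.10, edgeR adjusted p = 1.82e-06). In knockdown cells it was 22% higher than in control cells (log2 fold change 0.29, SE 0.10, edgeR adjusted p = 0.0311). The call for knockdown against control was the least stable of the 3, being lost on leaving out any control library or knockdown library 2 or 3, with edgeR adjusted p between 0.0621 and 0.11. The rescue against knockdown call was lost without rescue library 2 (edgeR adjusted p = 0.0639).

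The 6 BH3-only genes did not move together. BIK and BMF were lower in both engineered lines, BCL2L11 was higher in rescue cells, and for BAD, BID and PMAIP1 no difference passed the threshold. BIK (ENSG00000100290.2_2) encodes a BH3-only protein of the endoplasmic reticulum. It stood at 6.37, 7.06 and 6.37 CPM in rescue libraries, 6.02, 8.24 and 7.55 CPM in knockdown libraries and 9.81, 15.5 and 14.3 CPM in control libraries. The highest knockdown value was below the lowest control value, and the rescue values lay within the knockdown range. BIK fell by 44.8% in knockdown against control cells (log2 fold change −0.86 with an SE of 0.18, edgeR adjusted p = 0.000409) and fell by 49.8% in rescue against control cells (log2 fold change −0.99, SE 0.18, edgeR adjusted p = 5.61e-05). It was the only one of the 10 still called, in rescue against control, when a change beyond 1.5-fold was required (edgeR adjusted p = 0.045).

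BMF (ENSG00000104081.13_3) encodes a BH3-only protein first tied to loss of cell attachment. It was at 9.21, 8.14 and 9.33 CPM in rescue libraries, 10.1, 7.74 and 8.05 CPM in knockdown libraries and 13.3, 16.8 and 11.4 CPM in control libraries. Both engineered lines again lay below all control values. BMF fell by 37.2% in knockdown against control cells (log2 fold change −0.67 with an SE of 0.16, edgeR adjusted p = 0.00201) and fell by 35.5% in rescue against control cells (log2 fold change −0.63, SE 0.16, edgeR adjusted p = 0.00269).

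BCL2L11 (ENSG00000153094.22_4) encodes BIM, a BH3-only protein that binds all the main pro-survival members. It was at 44.2, 45.3 and 47.5 CPM in rescue libraries, 43.1, 43.7 and 39.8 CPM in knockdown libraries and 37.4, 29.8 and 39.1 CPM in control libraries. The groups did not overlap, and control library 2 was the lowest of the 9. BCL2L11 was 28.8% higher in rescue than in control cells (log2 fold change 0.37, SE 0.10, edgeR adjusted p = 0.00468), a call that was lost without control library 2 (adjusted p = 0.0546, edgeR). The knockdown value against control was a log2 fold change of 0.25 (SE 0.10, edgeR adjusted p = 0.0565), just short of the threshold. Between rescue and knockdown cells the groups did not overlap but the difference did not pass the test (log2 fold change 0.11, edgeR adjusted p = 0.559).

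BAD (ENSG00000002330.13_4), a BH3-only protein kept inactive by phosphorylation downstream of survival signals, averaged 58.9 ± 4.23 CPM in rescue cells, 60.5 ± 7.08 CPM in knockdown cells and 61.7 ± 9.76 CPM in control cells (SD, n = 3 each). BID (ENSG00000015475.18_3), which links death receptors to mitochondria once cut by caspase-8, averaged 13.6 ± 0.987 CPM in rescue cells, 14.6 ± 2.5 CPM in knockdown cells and 11.7 ± 1.23 CPM in control cells (SD, n = 3 each). PMAIP1 (ENSG00000141682.11_2), which encodes NOXA, a partner of MCL1, averaged 12.9 ± 2.95 CPM in rescue cells, 13.3 ± 1.21 CPM in knockdown cells and 13.8 ± 0.827 CPM in control cells (SD, n = 3 each). The groups overlapped for all of these genes in each comparison. The 95% interval of the log2 fold change for knockdown against control ran from −0.29 to 0.23 for BAD, from −0.05 to 0.66 for BID and from −0.42 to 0.31 for PMAIP1. BID had an edgeR adjusted p of 0.107, and of 0.0305 once knockdown library 1, the lowest of that group, was left out.

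Of the 10 genes, 6 had knockdown and control values that did not overlap, beside 42.5% of all genes, 2 had rescue and knockdown values that did not overlap, beside 27.5%, and 6 had rescue and control values that did not overlap, beside 48.1%. The typical size of change was close to that of all genes for both comparisons with control. The median absolute log2 fold change of the 10 was 0.27 for knockdown against control, 0.05 for rescue against knockdown and 0.29 for rescue against control, beside 0.29, 0.19 and 0.34 over all genes.

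**Figure D2:**
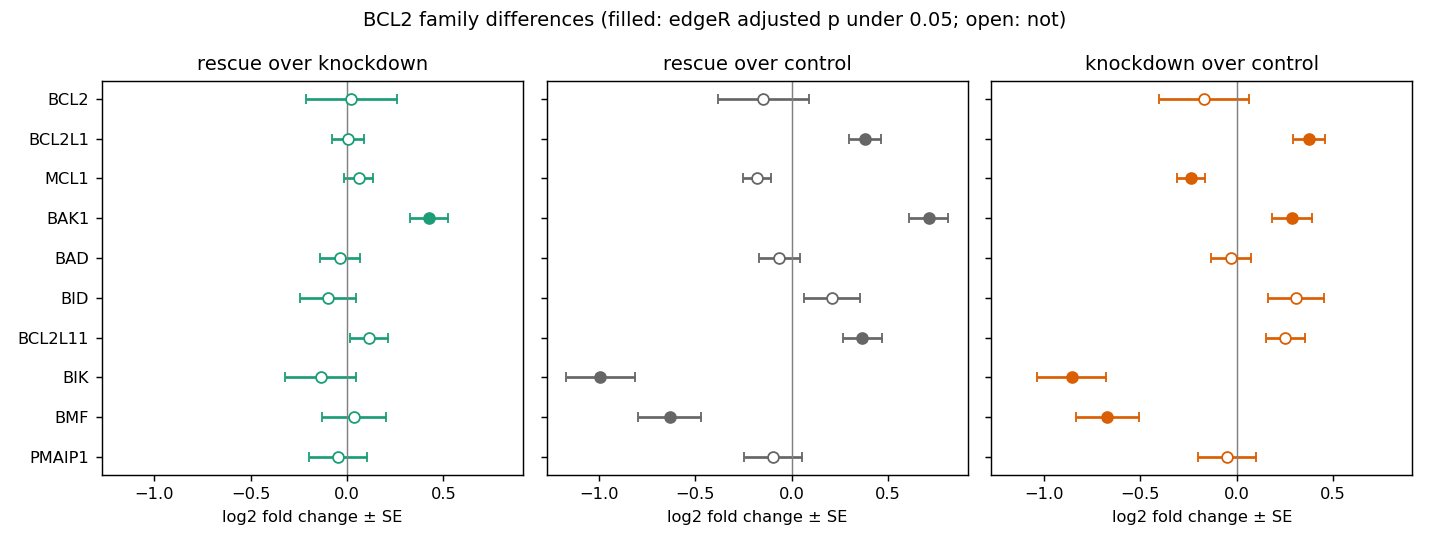
Log2 fold change of the 10 genes for rescue over knockdown, rescue over control and knockdown over control, with whiskers of 1 SE from the edgeR fit and filled points at an adjusted p under 0.05. BIK and BMF lie below 0 in both comparisons with control, BAK1 is filled and above 0 in all 3, and the other 9 points of rescue over knockdown are open and near 0.

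Levels of different genes were set side by side as CPM per kilobase of annotated exon, a scale that divides out gene length. MCL1 supplied most of the RNA of the 3 pro-survival genes, at 82.5 ± 4.29 CPM per kilobase in rescue cells, 79.1 ± 6.0 in knockdown cells and 93.4 ± 1.38 in control cells (SD, n = 3 each). BCL2L1 followed at 21.1 ± 1.75 CPM per kilobase in rescue cells, 21.0 ± 0.224 in knockdown cells and 16.2 ± 0.593 in control cells, and BCL2 was the lowest at 0.428 ± 0.145, 0.418 ± 0.085 and 0.472 ± 0.071. The order of the 3 genes was the same in each group. BCL2L2, a pro-survival gene outside the 10, was not part of this ranking or of the shares here. Without division by length, BCL2L2 was at 88.6 CPM in rescue, 84.0 CPM in knockdown and 66.6 CPM in control cells. BCL2L1 was at 69.8, 69.6 and 53.7 CPM on that scale. The MCL1 share of their sum was 79.3% ± 0.804 in rescue cells, 78.6% ± 1.34 in knockdown cells and 84.8% ± 0.503 in control cells, and the BCL2L1 share was 20.2% ± 0.682, 20.9% ± 1.26 and 14.7% ± 0.482. The shift in share between the engineered lines and control was several times the SD between libraries, and no test was run on it.

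**Figure D3:**
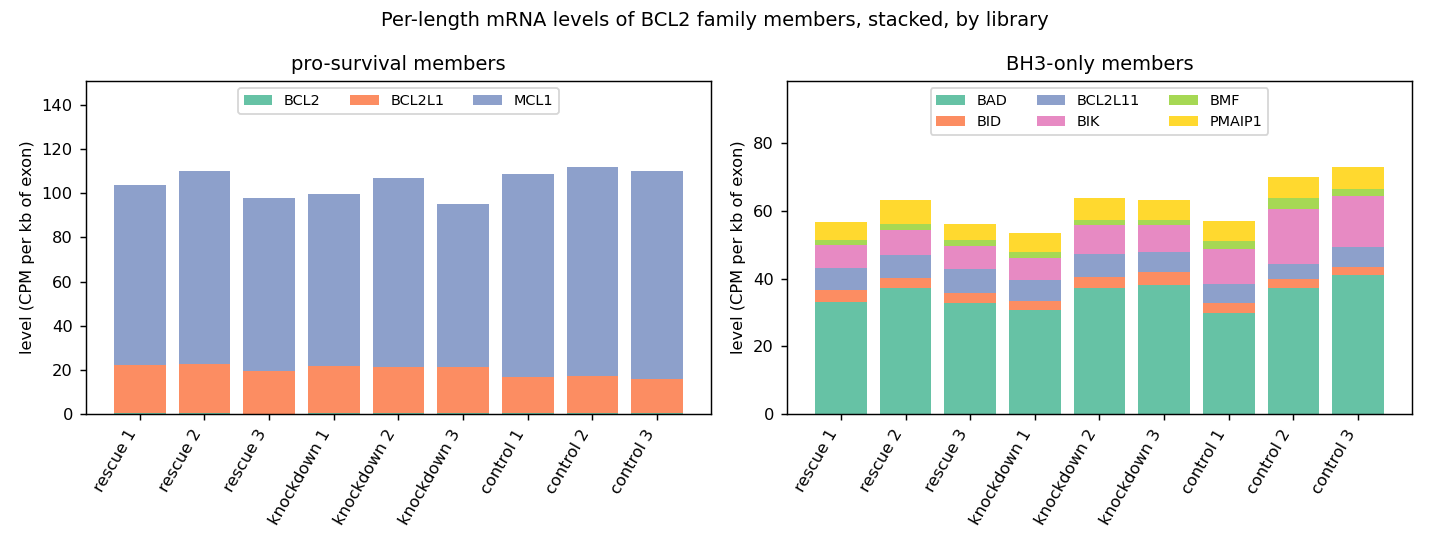
Stacked levels of the 3 pro-survival genes and of the 6 BH3-only genes in CPM per kilobase of exon, with 1 bar per library of rescue, knockdown and control cells. MCL1 makes up on average 79.3% of the pro-survival stack in rescue, 78.6% in knockdown and 84.8% in control libraries, BAD is the largest part of the BH3-only stack in all groups, and the BCL2 layer is too thin to be seen.

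Among the 6 BH3-only genes of the 10, on the same per-kilobase scale, BAD was the highest at 34.5 CPM per kilobase in rescue cells, 35.4 in knockdown cells and 36.1 in control cells. BBC3 and HRK, BH3-only genes outside the 10, were not part of this ranking or of the shares and sums here. Without division by length, BBC3 was at 136 CPM in rescue, 153 CPM in knockdown and 109 CPM in control cells. BIK supplied 11.8% ± 0.097 of the sum of the 6 in rescue cells, 12.6% ± 0.868 in knockdown cells and 20.6% ± 2.52 in control cells (SD, n = 3 each). BCL2L11 supplied 11.7%, 10.6% and 8.10% in the same groups. In control cells BIK was thus above BCL2L11, at 13.8 against 5.32 CPM per kilobase. In rescue cells BIK and BCL2L11 stood at 6.93 and 6.86 CPM per kilobase, within the spread of the libraries. That tie depended on the length used: with the longest transcript of each gene, BIK was at 6.93 ± 0.419 and BCL2L11 at 8.73 ± 0.315 CPM per kilobase in rescue cells (SD, n = 3 each), without overlap. The summed level of these 6 genes was 58.7 ± 3.98 CPM per kilobase in rescue cells, 60.2 ± 5.90 in knockdown cells and 66.6 ± 8.53 in control cells, and the ranges of these sums were not tested.

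Of the 10 genes, 5 share part of their exon sequence with a gene on the opposite strand. The strand setting of the counting is not given in the sources used here. How reads from the shared stretch of each pair were assigned is therefore not known. ABALON, a long non-coding RNA, covers 43.0% of the BCL2L1 exon length and was counted at 0.362 to 0.520 times the BCL2L1 count. ABALON was at 29.6 ± 2.03 CPM in rescue cells, 27.8 ± 2.58 CPM in knockdown cells and 23.6 ± 3.31 CPM in control cells (SD, n = 3 each). With both counts summed, the log2 fold change of BCL2L1 for knockdown against control was 0.33 (edgeR adjusted p = 0.000964). GPR137 overlaps 23.6% of the BAD exon length, MIR4435-2HG 10.9% of BCL2L11, BMF-AS1 8.46% of BMF and GGNBP1 4.11% of BAK1. Summing each pair kept the calls of BAK1 (0.31, edgeR adjusted p = 0.018) and BMF (−0.64, edgeR adjusted p = 0.00218) for knockdown against control. It brought BCL2L11 past the threshold in that comparison (edgeR adjusted p = 0.0272). The sum takes in all reads of MIR4435-2HG, whose own log2 fold change was 0.41 (edgeR adjusted p = 0.0645). Unsummed, BCL2L11 was at 0.14 without control library 2 (edgeR adjusted p = 0.328). It was called without control library 1 or 3 (edgeR adjusted p = 0.0398 and 0.032).

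Promoter sequences, from 250 bases before to 50 bases after each start site, were taken from RefSeq (GRCh38.p14) and were found for 8 of the 10 genes, with 15 promoters in all. The 3 below were picked because they held a motif and belong to genes with a called difference. Capitals mark the motifs found: ATTGG, the reverse complement of the CCAAT box, and in BCL2L11 also GTAAACA, the core bound by FOXO factors.
BAK1, chr6:33580227-33580526, minus strand: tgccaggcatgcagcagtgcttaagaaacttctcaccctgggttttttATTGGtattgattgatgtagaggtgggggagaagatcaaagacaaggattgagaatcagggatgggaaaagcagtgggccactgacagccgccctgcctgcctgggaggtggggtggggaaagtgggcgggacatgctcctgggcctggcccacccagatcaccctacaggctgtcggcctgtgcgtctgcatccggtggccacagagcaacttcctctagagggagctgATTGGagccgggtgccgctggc
BCL2L11, chr2:111120664-111120963, plus strand: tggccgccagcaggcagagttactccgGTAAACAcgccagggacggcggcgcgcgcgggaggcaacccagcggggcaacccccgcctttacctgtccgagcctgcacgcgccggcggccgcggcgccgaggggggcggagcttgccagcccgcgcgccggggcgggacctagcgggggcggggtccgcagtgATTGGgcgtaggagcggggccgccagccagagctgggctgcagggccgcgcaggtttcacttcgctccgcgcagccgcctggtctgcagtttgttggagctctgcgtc
BMF, chr15:40108830-40109129, minus strand: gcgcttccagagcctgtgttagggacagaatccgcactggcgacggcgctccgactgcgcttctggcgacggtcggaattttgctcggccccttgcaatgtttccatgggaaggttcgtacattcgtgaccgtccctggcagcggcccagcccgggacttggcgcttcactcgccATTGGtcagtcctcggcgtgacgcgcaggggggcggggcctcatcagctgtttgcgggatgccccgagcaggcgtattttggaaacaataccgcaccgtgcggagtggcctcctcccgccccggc
Both strands were searched for 4 motifs: GTAAACA, TGATGNAA (an element bound by ATF4 and CHOP), AGAACA (a half-site of the androgen receptor) and CCAAT (the CCAAT box, bound by NF-Y). The FOXO core GTAAACA was in 1 of the 15 promoters, beside 3.42% of 35116 promoters of the same length. CCAAT was in 5 of the 15, beside 34.6%. Those 5 included each promoter of BAD, for which no difference passed the threshold. The promoters of BCL2L1, which was called, and another promoter of BMF held no match to any of the 4 motifs. TGATGNAA and AGAACA were in 0 of the 15, beside 3.62% and 14.8%. A match describes letters in this window and not a bound site.

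Over the 9 libraries, the genes whose log2 CPM followed BAK1 most closely were HLA-B (Pearson r = 0.984), DRAIC (r = 0.984) and VDAC1 (r = 0.98), among 10870 genes with a mean of at least 5 CPM. VDAC1, the outer mitochondrial membrane channel, was at 422 ± 14.1 CPM in rescue cells, 356 ± 17.3 CPM in knockdown cells and 315 ± 11.9 CPM in control cells (SD, n = 3 each). For BIK the closest were RIPK2 (r = 0.978), RRP7BP (r = 0.971) and EIF3G (r = 0.968). RIPK2, a kinase of innate immune signalling, was at 20.7 ± 1.24 CPM in rescue cells, 21.1 ± 1.44 CPM in knockdown cells and 27.3 ± 3.58 CPM in control cells. These correlations are over libraries that fall into 3 groups and are a description of shared order across them.

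Around the 10 genes, 57 other apoptosis genes in 7 lists were examined, of which 54 had enough counts to be tested. For knockdown against control 23 of the 54 were called, 15 higher and 8 lower, beside the 32.1% of all genes. For rescue against knockdown 8 were called, 6 higher and 2 lower, beside 10.1%, and for rescue against control 28, of which 18 were higher and 10 lower, beside 37.8%. In knockdown against control, 3 relatives in the BCL2 family were higher and 1 was lower. Of those 3, BCL2L14 was at only 0.784 CPM in knockdown and 0.189 CPM in control cells. Its call was lost without control library 2 or 3 and without knockdown library 2 or 3 (edgeR adjusted p up to 0.127). Among the 8 tested relatives in the BCL2 family, HRK, a BH3-only gene best known from neurons, had the largest fall, to 1.10 ± 0.446 CPM in rescue cells and 1.86 ± 0.424 CPM in knockdown cells, against 7.91 ± 0.523 CPM in control cells (SD, n = 3 each). Its log2 fold change was −2.09 for knockdown against control (edgeR adjusted p = 3.87e-07) and −2.83 for rescue against control (edgeR adjusted p = 3.15e-09). BBC3, which encodes the BH3-only protein PUMA, moved the other way, at 136 ± 6.60 CPM in rescue cells and 153 ± 17 CPM in knockdown cells, against 109 ± 7.21 CPM in control cells. Its log2 fold change for knockdown against control was 0.49 (edgeR adjusted p = 2.2e-05). BCL2L2, a pro-survival gene that encodes BCL-W, rose like BCL2L1, with a log2 fold change of 0.34 for knockdown and 0.41 for rescue against control (edgeR adjusted p = 0.00197 and 0.00018). BOK, a BAK-related effector, was higher in rescue than in knockdown cells (log2 fold change 0.46, edgeR adjusted p = 0.0224). That call was lost without knockdown library 1 or 3 and without rescue library 1 or 3.

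Downstream of the mitochondria, 3 of 11 apoptosome and caspase genes were called for knockdown against control, 1 higher and 2 lower, which is 27.3% of the list beside 32.1% of all genes. APAF1, the scaffold of the apoptosome, was at 21.0 ± 2.97 CPM in rescue cells, 20.7 ± 1.89 CPM in knockdown cells and 33.8 ± 4.31 CPM in control cells (SD, n = 3 each). It fell by 0.71 on the log2 scale in knockdown cells (edgeR adjusted p = 3.38e-05), and CASP2, an initiator caspase, fell by 0.41 (edgeR adjusted p = 0.00364). HTRA2, a mitochondrial protease that blocks inhibitors of apoptosis once released, rose by 0.36 (edgeR adjusted p = 0.0121), a call lost without knockdown library 2. Of the 6 tested inhibitor-of-apoptosis genes 1 was called, BIRC3, with a log2 fold change of 1.78 for knockdown against control (SE 0.16, edgeR adjusted p = 7.89e-10) and 1.41 for rescue against control (edgeR adjusted p = 5.77e-08).

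Among 12 genes of death receptors and of the signalling proteins that act with them, 6 were higher and 2 lower in knockdown than in control cells. The shares among all genes were 16.5% higher and 15.6% lower. CFLAR, which encodes the caspase-8 inhibitor FLIP, was at 44.5 ± 2.71 CPM in rescue cells, 23.0 ± 2.00 CPM in knockdown cells and 14.2 ± 1.22 CPM in control cells (SD, n = 3 each). Like BAK1 it was ordered rescue, knockdown, control, with a log2 fold change of 0.95 for rescue against knockdown (edgeR adjusted p = 3.59e-07). TNFRSF10D, a decoy receptor for TRAIL, had the same order, at 260 ± 12.5, 203 ± 19.4 and 128 ± 6.95 CPM in those groups (edgeR adjusted p = 0.00189 for rescue against knockdown and 7.22e-08 for knockdown against control). TNFRSF10B, a death-signalling receptor for TRAIL, rose by 0.32 on the log2 scale in knockdown against control cells (edgeR adjusted p = 0.000368), while FAS, the receptor for FAS ligand, fell by 0.47 (edgeR adjusted p = 0.00468).

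**Figure D4:**
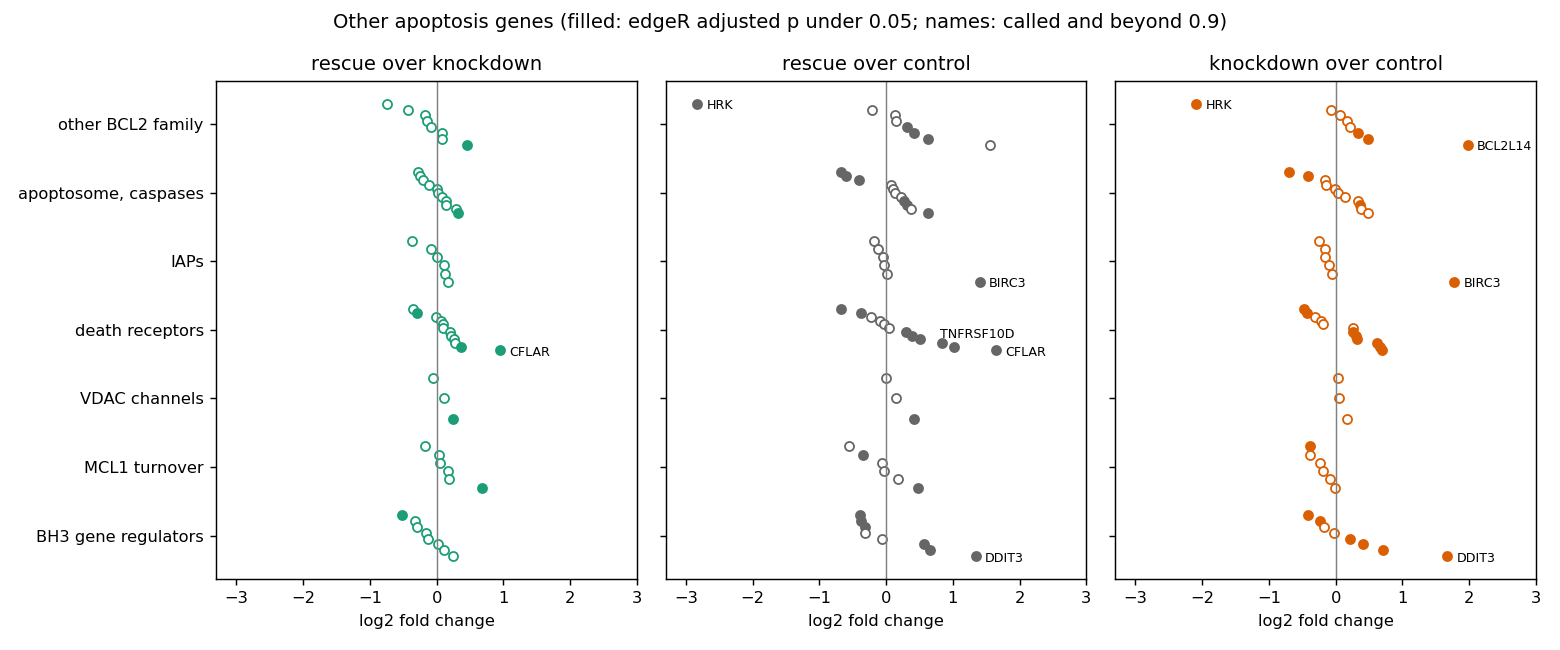
Log2 fold change of the tested genes of the 7 other apoptosis lists, for rescue over knockdown, rescue over control and knockdown over control, with 1 point per gene, filled at an edgeR adjusted p under 0.05, and names beside called genes beyond 0.9 in size. HRK lies lowest at −2.83 in rescue over control and −2.09 in knockdown over control, BIRC3 and DDIT3 lie far to the right in both, and CFLAR does so in rescue over knockdown and rescue over control.

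Of the 3 voltage-dependent anion channel genes, VDAC1 came nearest to the threshold for knockdown against control (edgeR adjusted p = 0.0565). It was called for rescue against knockdown (log2 fold change 0.25, edgeR adjusted p = 0.0228) and for rescue against control (log2 fold change 0.42, edgeR adjusted p = 2.01e-05). The first of these calls was lost without knockdown library 1 or 3 and without rescue library 1 or 2. Of the 6 genes listed for MCL1 turnover, 1 was called for knockdown against control. USP9X, a deubiquitinase that stabilises MCL1 protein, fell by 0.38 on the log2 scale in knockdown against control cells (edgeR adjusted p = 0.000129). FBXW7, a ubiquitin ligase subunit that targets MCL1, was higher in rescue than in knockdown cells (log2 fold change 0.67, edgeR adjusted p = 5.47e-05). Of 8 transcription factors known to act on BH3-only genes, 4 were higher and 2 lower in knockdown than in control cells, beside 16.5% and 15.6% of all genes. Both lower calls, FOXO3 and FOXO4, were lost in some fits that left out 1 library. FOXO3 was lost without control library 1 or knockdown library 2 or 3 (edgeR adjusted p up to 0.157), and FOXO4 without control library 1 or knockdown library 2 (edgeR adjusted p up to 0.178). Of the higher calls, DDIT3 and ATF4 were kept in every such fit. E2F1 and JUN had edgeR adjusted p of 0.0296 and 0.0288, and their fits with 1 library left out are not given here. Knockdown and control values overlapped for E2F1, JUN and FOXO3. DDIT3, which encodes CHOP and is induced by stress of the endoplasmic reticulum, was at 167 ± 18.2 CPM in rescue cells, 209 ± 28.9 CPM in knockdown cells and 65.6 ± 13.6 CPM in control cells (SD, n = 3 each). It rose by 1.67 on the log2 scale for knockdown (edgeR adjusted p = 1.11e-05), and ATF4, a stress-response factor that acts upstream of it, rose by 0.71 (edgeR adjusted p = 7.25e-05). FOXO3 was lower in rescue than in control cells, with a log2 fold change of −0.39 (edgeR adjusted p = 0.00017). JUN was lower in rescue than in knockdown cells, at 237 ± 1.48 CPM against 342 ± 21.2 CPM (log2 fold change −0.53, edgeR adjusted p = 1.31e-05).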

How the data were processed

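Total RNA of LNCaP cells was sequenced as 9 libraries. The authors deposited raw read counts per gene with no normalization, made with HISAT2 and HTSeq on hg19 after FastQC and cutadapt, per the submitters' processing notes. Versions and the strand setting are not stated there. Rows for unassigned reads were left out of library sizes: 48.8% to 50.7% of reads fell in no feature and 40.3% to 42.9% in genes. Of 60880 gene IDs, 56373 matched the symbol table, 485 matched GENCODE v29 and 4022 matched neither. GENCODE v29 (GRCh38) also gave exon lengths and overlaps, so no file coordinate was used.

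Counts were tested with edgeR 4.0.16 in R 4.3.3: filterByExpr with a minimum count of 10, TMM normalization, a robust quasi-likelihood fit over all 9 libraries (6 residual degrees of freedom) and Benjamini-Hochberg adjustment over 18389 genes, with calls at adjusted p under 0.05. Each SE is |log2 fold change| divided by √F, and 95% intervals use 6 degrees of freedom. The tests add prior degrees of freedom estimated over all genes, so the intervals of the 10 genes are wider than the tests imply. For BID in knockdown against control, the interval took in 0 although the unadjusted edgeR p was 0.0421. CPM values use TMM library sizes. The script was tested on simulated counts. No libraries were duplicates (chi-square per degree of freedom within groups 5.08 to 22.6). DESeq2 1.42.0 and limma 3.58.1 were alternatives. Named genes were the 10 members, up to 4 called genes per other list and comparison with the smallest adjusted p, some of which are not printed, and the 3 genes most like BAK1 and BIK. Members and lists were chosen with earlier results of these data known.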

Additional observations from a re-analysis of the deposited data

How the results depend on the processing

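The 10 genes in 3 comparisons were refitted under 18 alternatives, 540 values in all: 485 kept direction and side of the threshold, 18 lost a call, 12 gained one and 25 changed sign, none of which was a called value. The number of the 10 called was 5 for knockdown against control, 1 for rescue against knockdown and 5 for rescue against control. It became 0, 0 and 1 when a change beyond 1.5-fold was required, and 3 to 6, 0 to 1 and 4 to 6 when 1 library was left out. The 0 for rescue against knockdown came without rescue library 2. The other apoptosis lists had 23, 8 and 28 called, then 3, 1 and 5 beyond 1.5-fold and 17 to 22, 4 to 9 and 24 to 28 with 1 library left out. The 8 for rescue against knockdown became 5 without knockdown library 1, 4 without knockdown library 3 and 5 without rescue library 1 or 2. With the length of the longest transcript, the MCL1 share was 77.0% in rescue, 76.2% in knockdown and 83.0% in control cells, and leaving out 1 library gave 78.9% to 79.7%, 77.9% to 79.2% and 84.6% to 85.0%.

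Same-numbered libraries did not deviate together (9 correlations of −0.0369 to 0.0772, and the own number correlated best in 5 of 18 cases), so the numbers were not taken as a pairing. A replicate block called 6, 1 and 6 of the 10 genes and 24, 9 and 28 of the others. Sign changes were all in values that were not called, and their cause was not tested. Leaving out 1 library, the log2 fold change for knockdown against control ran from −0.15 to 0.071 for BAD and −0.12 to 0.017 for PMAIP1. For rescue against knockdown it ran from −0.13 to 0.023 for BAD, −0.25 to 0.25 for BCL2, −0.047 to 0.074 for BCL2L1, −0.23 to 0.014 for BID, −0.032 to 0.17 for BMF and −0.25 to 0.072 for PMAIP1. For rescue against control it ran from −0.19 to 0.038 for BAD, −0.42 to 0.076 for BCL2 and −0.30 to 0.019 for PMAIP1. With opposite-strand genes summed, an alternative chosen after seeing the data, BAD was at 0.038 for knockdown and 0.026 for rescue against control. For rescue against knockdown, BCL2L1 was at −0.0012 with upper-quartile scaling and −0.0026 with limma voom, and BCL2 at −0.049 with limma voom. BCL2 had the widest intervals among the 10.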
